A study of Mus musculus with 10 samples.

Results

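The genes described here belong to the signalling axis of interleukin 6 (IL-6), interleukin 10 (IL-10), STAT3 and the SOCS feedback inhibitors, measured by RNA-seq in mouse macrophages. They are 10 genes of the 56980 in the deposited table, chosen by symbol: Il6, Il10, Lif, Osm, Il6ra, Il10ra, Il10rb, Stat3, Socs3 and Socs1. All 10 passed the filter on low counts. Macrophages of a group read here as a knockout of Jaml (KO, 5 libraries) were compared with macrophages labelled wild type (WT, 5 libraries). Jaml encodes the junctional adhesion molecule-like protein of leukocytes. Both genotypes received 8 h of lipopolysaccharide (LPS, a ligand of Toll-like receptor 4; 100 ng/ml), followed by 30 min of ATP (5 mM), so every value describes stimulated cells and unstimulated cells were not analysed here. No Cre line, strain, age or tissue of origin is given in the sources used here. The sample titles call the first group JAMLMKO, while its genotype tag reads JAML Knockdown, and the Jaml counts given below cannot decide between these labels. The columns of that group in the table are headed SI, a name that the labels leave unexplained. They were read as KO because WT is the other group, and each direction below depends on that reading.

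IL-6, leukaemia inhibitory factor (Lif) and oncostatin M (Osm) signal through receptor complexes that share the chain gp130, encoded by Il6st. IL-10 signals through a receptor made of the chains Il10ra and Il10rb. In both cases Janus kinases attached to the receptor phosphorylate STAT3, which enters the nucleus and switches on target genes, among them Socs3. SOCS3 binds gp130 and blocks the IL-6 signal but does not bind the IL-10 receptor, and in macrophages IL-10 uses STAT3 to restrain inflammatory gene expression. SOCS1 inhibits Janus kinases and is best known as a brake on interferon signalling.

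Promoter windows of the most changed cytokine gene and of both feedback genes are shown here, because these genes carry the contrasts described below. Each is the 250 bases before the RefSeq transcription start in build GRCm38.p6, written 5′ to 3′ on the strand of the gene. Of the 10 genes, 6 had an entry in the promoter table. Capitals mark matches, on either strand, to the STAT-type motif TTCNNNGAA or to an NF-kB-type motif (GGGA, any 2 bases, TTCC), and no match of one overlapped a match of the other.
Il6, chr5:30012864-30013113, plus strand: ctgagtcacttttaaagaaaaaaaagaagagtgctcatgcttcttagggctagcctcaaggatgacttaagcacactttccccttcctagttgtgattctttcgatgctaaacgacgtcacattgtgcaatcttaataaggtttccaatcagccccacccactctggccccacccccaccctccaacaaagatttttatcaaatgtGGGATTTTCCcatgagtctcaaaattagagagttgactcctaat
Socs3, chr11:117969367-117969616, minus strand: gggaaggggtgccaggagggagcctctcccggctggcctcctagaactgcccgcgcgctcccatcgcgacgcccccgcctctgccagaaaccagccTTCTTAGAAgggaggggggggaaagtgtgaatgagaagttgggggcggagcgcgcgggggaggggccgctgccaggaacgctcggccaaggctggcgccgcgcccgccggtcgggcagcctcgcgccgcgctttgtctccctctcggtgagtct
Socs1, chr16:10785537-10785786, minus strand: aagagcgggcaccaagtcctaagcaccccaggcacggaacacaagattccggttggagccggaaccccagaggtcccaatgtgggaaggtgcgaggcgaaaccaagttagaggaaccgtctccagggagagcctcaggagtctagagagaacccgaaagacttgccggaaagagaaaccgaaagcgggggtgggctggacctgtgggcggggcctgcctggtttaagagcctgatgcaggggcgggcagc
The Il6 window held 1 NF-kB-type match, which began 44 bases before the start site. The Socs3 window held 1 STAT-type match, which began 154 bases before the start site, and the Socs1 window held neither motif. The windows of Il6ra, Lif and Stat3, not printed, held neither motif as well. Of 32851 windows of the same length in the table, 7.02% held the STAT-type motif and 1.21% the NF-kB-type motif.

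The libraries held 19378160 to 22766319 counts in KO and 19319512 to 21230317 counts in WT. The floor of 3 counts a library, which covers counting error only, was 0.132 to 0.155 CPM (counts scaled to library size). Jaml itself had 2 counts in KO 4, 2 counts in WT 1 and 0 in the remaining libraries, all under that floor, so this gene was no check of the genotype labels. A list of 7 macrophage markers served to check the cell type, and its summed level was 22989 to 24988 CPM in KO and 23854 to 25394 CPM in WT. Most of that sum came from Lyz2, the macrophage lysozyme gene, at 17506 ± 721 CPM in KO and 18189 ± 522 CPM in WT (mean ± SD, n = 5 each, as for all means below). Of the 7 markers, Csf1r and Cd14 rose by 0.16 ± 0.04 and 0.13 ± 0.03 on the log2 scale, Mertk fell by 0.33 ± 0.06, and the other 4 did not pass. Among all genes tested 14.1% rose and 15.0% fell. KO 1 and KO 3 lay apart from the other KO libraries on the second principal component, at 27.6 and 37.6 against -16.6 to -5.66. CPM values are scaled by the trimmed mean of M-values (TMM), and the labels do not say whether libraries stem from separate mice, so p-values reflect the spread between the libraries alone, and that spread may be technical.

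KO macrophages had less RNA from the 4 cytokine genes of the axis, from Stat3 and from Socs3, and slightly more RNA from the IL-6 receptor gene Il6ra. Il6 showed the largest difference among the 10 genes, with 2.79-fold less RNA in KO, followed by Il10 with 1.86-fold less, while Socs3 was 33.2% lower. Of the 10 genes, 6 fell, 1 rose and 3 did not pass by the quasi-likelihood test of edgeR (threshold 0.05 on the adjusted p). Among all 14436 genes tested, 29.1% passed, of which those that fell made 15.0% of all genes and those that rose 14.1%. The median log2 fold change, KO minus WT, was -0.31 over the 10 genes and 0.01 over all genes tested. The 5 KO values lay wholly below the 5 WT values for 6 of the 10 genes and wholly above for 1, against 12.4% and 10.9% of all genes tested, 23.3% together. The same 6 genes fell and the same gene rose with library totals in place of TMM scaling, which shifted the median of all genes to 0.12 and made 9.43% of all genes lower and 29.3% higher. Leaving out KO 1 and KO 3 together, an alternative added once their position was known, again gave 6 genes that fell and 1 that rose.

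**Figure D1:**
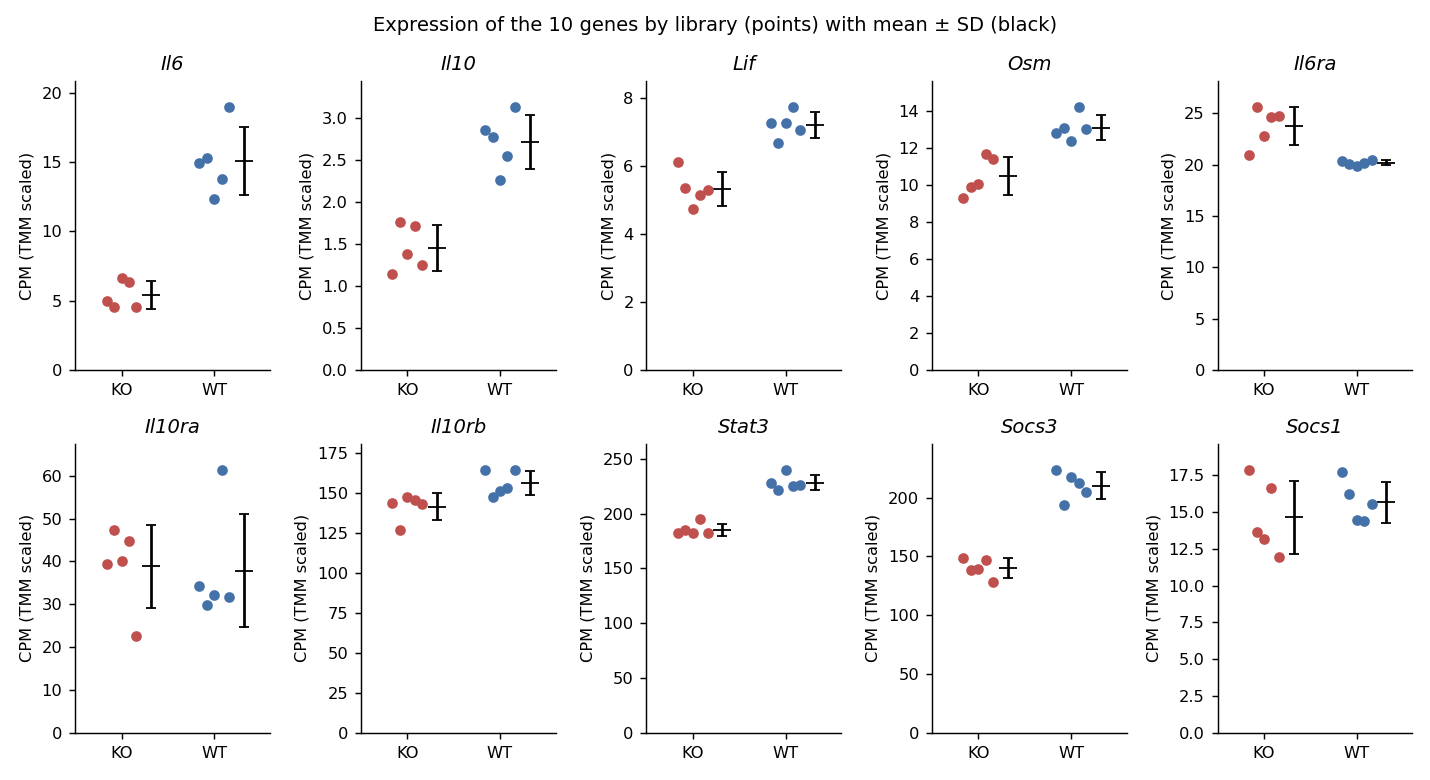
Expression of the 10 genes in CPM (vertical axis, from 0) in the 5 KO and 5 WT libraries; each point is a library, in the order 1 to 5 from left to right, and the black mark gives mean ± SD. KO points lie below all WT points for Il6, Il10, Lif, Osm, Stat3 and Socs3 and above them for Il6ra, while the groups overlap for Il10ra, Il10rb and Socs1.

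Il6, a cytokine gene strongly induced by LPS in macrophages (ENSMUSG00000025746, chromosome 5, 30218112 to 30224979 as the table lists it), had 4.97, 4.52, 6.66, 6.32 and 4.53 CPM in KO 1 to KO 5, against 14.9, 15.3, 12.4, 13.8 and 18.9 CPM in WT 1 to WT 5. Every KO library lay below every WT library by a wide margin, and WT 5 was the highest of all 10. These levels rest on 90 to 149 counts in KO and 245 to 381 counts in WT. Il6 fell by 1.48 ± 0.14 on the log2 scale (fold changes carry the SE of the fit throughout; edgeR adjusted p = 1.2e-05).

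Il10, the gene of the anti-inflammatory cytokine that acts through STAT3 (ENSMUSG00000016529, chromosome 1, 130947582 to 130952711), had 1.15, 1.77, 1.39, 1.72 and 1.26 CPM in KO, against 2.86, 2.78, 2.27, 2.56 and 3.13 CPM in WT. The groups did not overlap, at 25 to 41 counts in KO and 45 to 63 counts in WT, the lowest counts among the 10 genes. Il10 fell by 0.90 ± 0.16 on the log2 scale (adjusted p = 0.00101).

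Il6 and Il10 both fell, and Il6 fell further. Within a library the count of Il6 was 4.25, 2.54, 4.75, 3.65 and 3.55 times that of Il10 in KO, against 5.19, 5.46, 5.40, 5.34 and 6.01 times in WT. All 5 KO ratios lay below all 5 WT ratios, and KO 2 had the lowest. The mean log2 ratio was 1.88 ± 0.34 in KO and 2.45 ± 0.08 in WT, a difference of -0.58 (two-sided exact permutation p = 0.00794, which is the smallest possible with 5 against 5; 0.0198 after Benjamini-Hochberg adjustment over 5 ratios).

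Lif and Osm, 2 further cytokine genes of the gp130 family, fell by smaller amounts. They are neighbours on chromosome 11, with Osm (ENSMUSG00000058755) at 4186420 to 4191026 and Lif (ENSMUSG00000034394) at 4207557 to 4222514, a gap of 16.5 kb. Lif had 6.12, 5.34, 4.74, 5.15 and 5.29 CPM in KO, against 7.25, 6.68, 7.26, 7.72 and 7.06 CPM in WT. Osm had 9.34, 9.91, 10.1, 11.7 and 11.4 CPM in KO, against 12.8, 13.1, 12.4, 14.2 and 13.1 CPM in WT. Neither gene overlapped between genotypes, although the highest KO value of each came within 1 CPM of the lowest WT value. Lif fell by 0.43 ± 0.08 on the log2 scale (adjusted p = 0.00194) and Osm by 0.32 ± 0.07 (adjusted p = 0.00601). The log2 ratio of Lif to Osm was -0.97 ± 0.23 in KO and -0.86 ± 0.07 in WT, which did not pass (exact p = 0.341, adjusted p = 0.427). When KO 1 and KO 2 were both left out, an alternative added later, the difference of that ratio was -0.26 and passed (exact permutation test, adjusted p = 0.0298).

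Cell types other than macrophages can also make these cytokines, and in bulk RNA fewer cells of a type and less RNA per cell cannot be told apart. The 7 mast cell markers summed to 4.26 to 5.43 CPM in KO and 7.47 to 13.5 CPM in WT. Of the 4 that were tested 3 fell, with Tpsb2 at 2.13 ± 0.25 CPM in KO and 4.40 ± 1.15 CPM in WT and Cma1 at 0.94 ± 0.13 CPM in KO and 2.35 ± 0.48 CPM in WT, while Ms4a2 was at or under the floor in every library of both genotypes, with 0 counts in KO and 2 counts in WT 2 alone. The 9 mesothelial and fibroblast markers summed to 597 to 767 CPM in KO and 575 to 637 CPM in WT, with 3 higher, 2 lower and 4 not called. The most abundant of these, the collagen genes Col1a1 and Col1a2, stood at 318 ± 22.1 and 255 ± 22.2 CPM in KO and 245 ± 12.6 and 205 ± 12.1 CPM in WT, and both rose, as did Dcn by 0.21 ± 0.05 on the log2 scale. Pdgfra fell, at 13.1 ± 1.49 CPM in KO and 26.4 ± 1.95 CPM in WT, and so did Upk3b, at 0.21 ± 0.09 CPM in KO and 1.41 ± 0.22 CPM in WT. Col3a1, a further collagen gene, had 70.9 ± 16.1 CPM in KO and 88.3 ± 6.31 CPM in WT and did not pass (edgeR adjusted p = 0.0946). Msln and Krt19 did not pass either and were uneven within KO. Msln had 8.97 and 11.4 CPM in KO 1 and KO 3, 0.30 to 1.08 CPM in KO 2, KO 4 and KO 5, and 5.02 to 9.73 CPM in WT. Krt19 had 2.30 and 3.17 CPM in KO 1 and KO 3, 0.20 to 0.26 CPM in KO 2, KO 4 and KO 5, and 1.39 to 3.31 CPM in WT. Wt1 showed no such wide split, at 1.34 to 2.30 CPM in KO and 1.49 to 2.17 CPM in WT. Of the tested mast cell markers 3 of 4 thus fell, against 15.0% of all genes tested. The mesothelial and fibroblast markers changed in both directions, with 3 of 9 higher and 2 lower, against 14.1% and 15.0% of all genes tested. The part of these cell types in the cytokine values was not tested.

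The 6 B cell markers summed to 0.69 to 1.56 CPM in KO and 1.64 to 3.90 CPM in WT. The most abundant of them were Ighm, which fell by 1.90 ± 0.37 on the log2 scale and was the one marker tested, and Cd79b at 0.30 ± 0.15 CPM in KO and 0.36 ± 0.24 CPM in WT. The 7 neutrophil markers summed to 23.1 to 27.1 CPM in KO and 14.9 to 19.2 CPM in WT, nearly all of it from S100a8 and Camp, which rose by 0.56 ± 0.07 and 0.53 ± 0.14, while Ly6g and Mpo were at or under the floor in every library of both genotypes, with 0 counts in KO and at most 3 counts in any WT library. The 7 T and NK cell markers summed to 2.19 to 3.33 CPM in KO and 2.14 to 2.86 CPM in WT, mostly from Lck (2.20 ± 0.48 CPM in KO and 2.48 ± 0.28 CPM in WT, not called) and with little Klrb1c (0.20 ± 0.06 CPM in KO and 0.03 ± 0.07 CPM in WT), and with Cd3e and Ncr1 at 0 in all libraries. The 6 dendritic cell markers, led by Zbtb46 and Ccr7, summed to 2.06 to 3.19 CPM in KO and 1.92 to 3.33 CPM in WT, with Xcr1 and Siglech at 0 in all libraries. Of the neutrophil markers 2 were tested and 2 rose, and the B cell marker tested fell, against 14.1% higher and 15.0% lower among all genes tested. The part of these cells in the values of the axis was not tested.

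On the receptor side, Il6ra, the ligand-binding chain for IL-6 (ENSMUSG00000027947, chromosome 3, 89771366 to 89820503), was the one gene of the 10 that rose. Il6ra had 21.0, 25.6, 22.8, 24.7 and 24.8 CPM in KO, against 20.4, 20.1, 19.8, 20.2 and 20.5 CPM in WT. The WT values were nearly level and the KO values spread above them, with KO 1 closest to WT. Il6ra rose by 0.24 ± 0.06 on the log2 scale (adjusted p = 0.00858). Il6st, the gp130 chain that IL-6, LIF and oncostatin M share, had 79.5 ± 12.7 CPM in KO and 80.5 ± 9.42 CPM in WT and did not pass (log2 fold change -0.02 ± 0.11, adjusted p = 0.931). The log2 ratio of Il6ra to Il6st was -1.73 ± 0.19 in KO and -1.99 ± 0.19 in WT, a difference of 0.25 that did not pass (exact p = 0.0794, adjusted p = 0.132), though it did without WT 5 (0.33, adjusted p = 0.0397).

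Neither chain of the IL-10 receptor passed, and both had libraries that stood apart. Il10ra, the ligand-binding chain (ENSMUSG00000032089, chromosome 9, 45165135 to 45180447), had 39.3, 47.3, 40.2, 44.8 and 22.6 CPM in KO, against 34.2, 29.9, 32.1, 61.3 and 31.7 CPM in WT. KO 5 was thus far below the other KO libraries and WT 4 far above the other WT libraries, at 448 and 1199 counts, so depth did not limit these values. Its log2 fold change was 0.04 ± 0.23 (adjusted p = 0.925), and it was 0.18 without KO 5, 0.29 without WT 4 and -0.04 without KO 2, none of them called. Il10ra lies 145 kb from Jaml on the same chromosome.

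Il10rb, the chain that the IL-10 receptor shares with receptors for related cytokines (ENSMUSG00000022969, chromosome 16, 91203052 to 91222722), had 144, 127, 148, 146 and 143 CPM in KO, against 164, 148, 152, 153 and 164 CPM in WT. The groups touched, since the highest KO library and the lowest WT library both stood at 148 CPM. A log2 fold change of -0.14 ± 0.05 lay at the threshold in edgeR (adjusted p = 0.0507), and it passed under the Wald test of DESeq2 (adjusted p = 0.038), robust edgeR (0.046), limma-voom (0.0477) and without KO 3 (0.0493). With library totals it was -0.03 (adjusted p = 0.742). Il10rb shares 13288 bases of its locus with Gm21970, listed as a protein-coding gene, which also overlaps the neighbouring interferon receptor gene Ifnar2, so the authors' counting could have split reads between them. Gm21970 had 21.2 CPM in KO 2, the lowest library for Il10rb, and between 7.40 and 8.31 CPM in KO 1, KO 3, KO 4 and KO 5, against 6.79 to 10.9 CPM in WT. Summed, Il10rb and Gm21970 had 151, 148, 156, 153 and 151 CPM in KO, against 172, 154, 162, 162 and 172 CPM in WT. The sum was formed with the values known, and its log2 difference was -0.11 (two-sided exact permutation p = 0.0159, not adjusted). Library totals moved the median of all genes by a similar size, from 0.01 to 0.12, and the sum was not tested with them. The log2 ratio of Il10ra to Il10rb was -1.91 ± 0.46 in KO and -2.10 ± 0.44 in WT and did not pass (exact p = 0.5, adjusted p = 0.5).

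**Figure D2:**
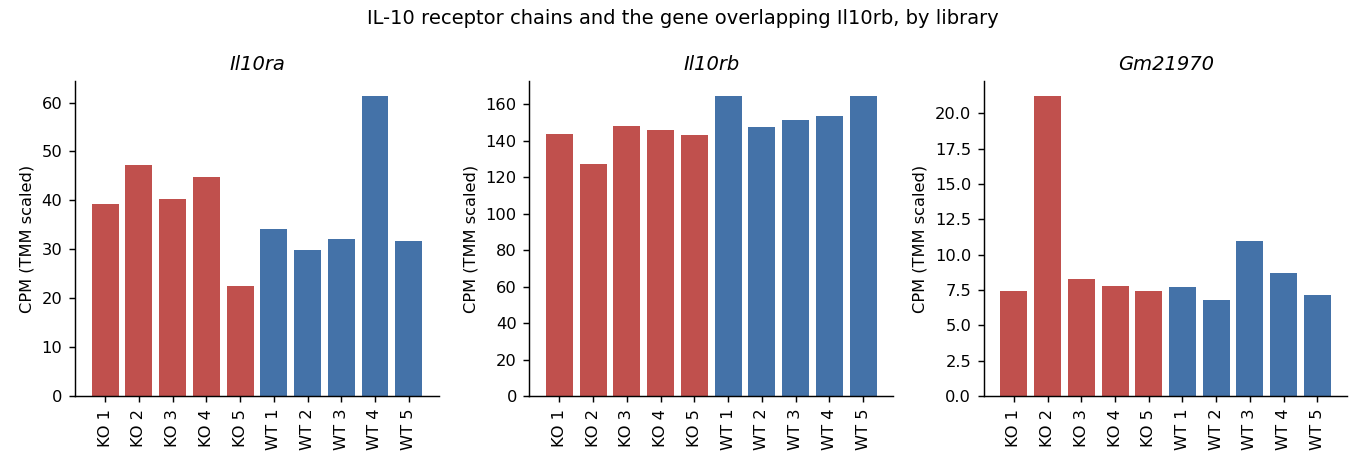
CPM of Il10ra, Il10rb and the overlapping gene Gm21970 (vertical axes, from 0) in each KO and WT library. Il10ra is low in KO 5 (22.6 CPM) and high in WT 4 (61.3 CPM), and KO 2 has both the lowest Il10rb (127 CPM) and the highest Gm21970 (21.2 CPM).

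Stat3, the transcription factor on which these receptors converge (ENSMUSG00000004040, chromosome 11, 100775924 to 100830366), had 182, 185, 182, 195 and 183 CPM in KO, against 227, 222, 240, 225 and 226 CPM in WT. The spread within each genotype was small, and KO 4, the highest KO library, still lay below every WT library. Stat3 fell by 0.30 ± 0.03 on the log2 scale, 1.23-fold (adjusted p = 5.1e-05). Its locus shares 72 bases with that of Stat5a, which had 49.1 ± 3.55 CPM in KO and 49.7 ± 4.74 CPM in WT and did not pass (adjusted p = 0.89).

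Socs3, the STAT3 target that shuts off gp130 signalling (ENSMUSG00000053113, chromosome 11, 117856905 to 117860873), had 149, 138, 140, 147 and 128 CPM in KO, against 224, 194, 217, 212 and 205 CPM in WT. The gap between the highest KO library and the lowest WT library was wider than the whole KO range. Socs3 fell by 0.58 ± 0.05 on the log2 scale (adjusted p = 6.4e-06). Its promoter window is the one of the 3 printed above with a STAT-type match, and a link of that match to the change was not tested.

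Socs1, the interferon-linked feedback gene (ENSMUSG00000038037, chromosome 16, 10600104 to 10603400), had 17.8, 13.7, 13.2, 16.6 and 11.9 CPM in KO, against 17.7, 16.2, 14.4, 14.4 and 15.6 CPM in WT. The KO libraries spanned the WT range on both sides, and the log2 fold change was -0.10 ± 0.11 (adjusted p = 0.57). The feedback genes therefore differed in their change: within a library Socs3 counts were 8.33, 10.1, 10.6, 8.84 and 10.7 times Socs1 counts in KO, against 12.6, 11.9, 15.0, 14.8 and 13.1 times in WT. The mean log2 ratio was 3.27 ± 0.16 in KO and 3.75 ± 0.15 in WT, a difference of -0.48 with no overlap (two-sided exact permutation p = 0.00794, adjusted p = 0.0198).

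**Figure D3:**
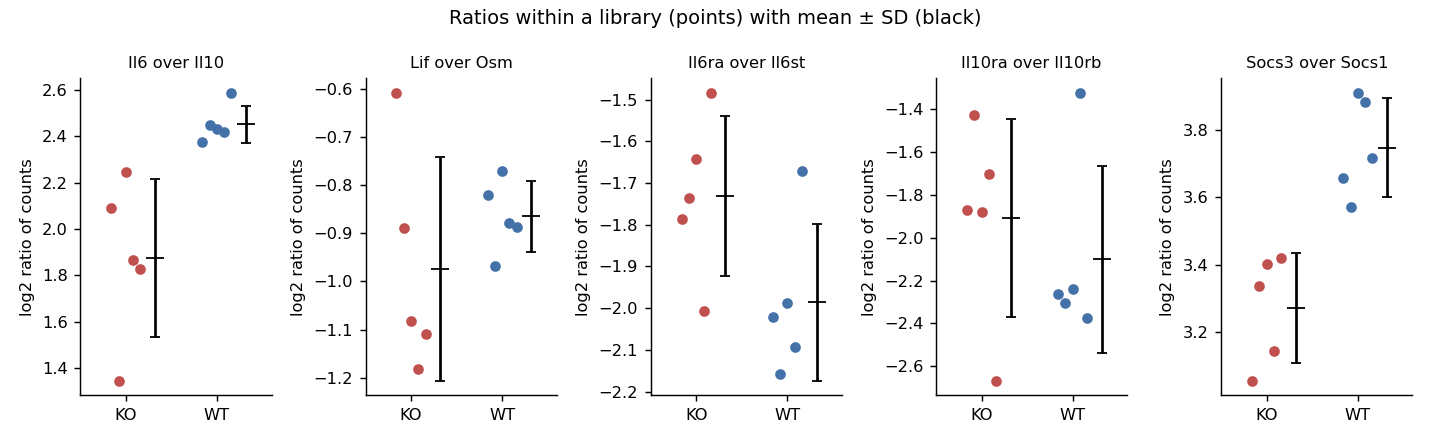
Log2 ratio of counts of paired genes within each library (vertical axis, not from 0), KO and WT; points are libraries and the black mark gives mean ± SD. All KO ratios lie below all WT ratios for Il6 over Il10 and for Socs3 over Socs1, and the groups overlap for the other 3 pairs.

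**Figure D4:**
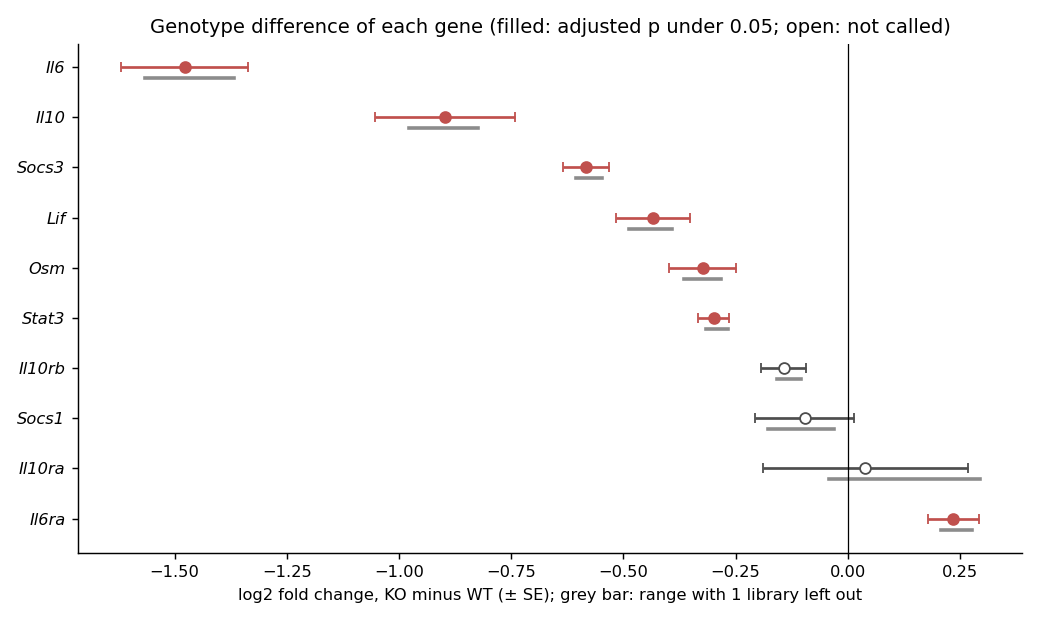
Log2 fold change, KO minus WT, of the 10 genes (horizontal axis; point and bar are estimate ± SE, filled where the adjusted p was under 0.05) with the range when 1 library is left out (grey). Il6 lies farthest from 0 at -1.48, Il6ra is the filled point above 0 at 0.24, and the range of Il10ra, -0.04 to 0.29, crosses 0.

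Per kilobase of the length implied by the authors' FPKM, Socs3 ranked highest of the 10 genes, and in KO the cytokine genes Il6, Lif and Il10 ranked lowest. For Socs1 that length, 5587 bases, exceeds the listed locus, 10600104 to 10603400. The implied lengths are thus not always transcript lengths, and the order of genes below depends on them and is no measure of relative abundance. In CPM divided by the implied length in kilobases, the level of Socs3 was 42.7 ± 2.53 in KO and 64.0 ± 3.53 in WT. Il10rb followed at 26.8 ± 1.56 in KO and 29.6 ± 1.45 in WT, and Stat3 at 11.8 ± 0.34 in KO and 14.5 ± 0.44 in WT. These 3 levels did not overlap each other, nor the level of any other gene, in either genotype. In KO the order went on with Il10ra, Osm, Socs1, Il6ra, Il6, Lif and Il10, from 4.69 ± 1.17 down to 1.11 ± 0.21. In WT it went on with Osm, Il10ra, Il6, Socs1, Il10, Il6ra and Lif, from 5.14 ± 0.26 down to 1.62 ± 0.09. Neighbours in KO that overlapped were Il10ra with Osm, Socs1 with Il6ra, Il6 with Lif and Lif with Il10; those in WT were Osm with Il10ra, Il10ra with Il6, Il6 with Socs1 and Il10 with Il6ra. Il6 had a level of 1.32 ± 0.25 in KO, below that of its receptor chain Il6ra at 2.17 ± 0.17, whereas in WT it had 3.68 ± 0.60, above Il6ra at 1.84 ± 0.02. That change of order rests on implied lengths of 4086 bases for Il6 and 10957 bases for Il6ra, and other lengths could remove it. In CPM, Il6 lay below Il6ra in both genotypes, at 5.40 ± 1.02 against 23.8 ± 1.86 in KO and 15.1 ± 2.45 against 20.2 ± 0.25 in WT.

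Among 8 other cytokine genes of the IL-6 family, 4 were tested and 1 fell, a share of 25.0% called against 29.1% of all genes tested. That gene was Il27, which encodes a subunit of IL-27, a cytokine that signals through gp130, and it had 2.86 ± 0.84 CPM in KO and 25.0 ± 2.61 CPM in WT (log2 fold change -3.12 ± 0.16, adjusted p = 1.54e-07). Ebi3, the gene of the partner subunit, named after its values were seen, had 54.2 ± 1.32 CPM in KO and 56.4 ± 3.52 CPM in WT and did not pass (adjusted p = 0.411). Il11, Il31, Cntf and Ctf1 were not tested, at up to 0.63 CPM.

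Of 7 further receptor genes of the family 5 were tested, and 2 rose, against 14.1% of all genes tested that rose. Il27ra, the receptor chain for IL-27, rose by 0.78 ± 0.13 on the log2 scale (adjusted p = 0.000616), at 5.45 ± 0.40 CPM in KO and 3.16 ± 0.59 CPM in WT, so the subunit gene Il27 and the receptor gene Il27ra changed in opposite directions. Il11ra1, an IL-11 receptor chain, rose by 0.23 ± 0.07 (adjusted p = 0.0276), a call lost without WT 1 (adjusted p = 0.0501) and without KO 1 and KO 2 (0.0559). On the log2 scale the difference was -0.08 ± 0.24 for the LIF receptor gene Lifr and 0.05 ± 0.12 for the oncostatin M receptor gene Osmr, neither called. Of 9 further IL-10 family cytokine and receptor genes 1 was tested, the receptor gene Il20rb, which rose by 0.91 ± 0.12 (adjusted p = 0.000124), and the other 8 had at most 1.21 CPM.

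Several Janus kinase and STAT genes were lower in KO. Of 10 tested, 6 fell and none rose, with a median log2 fold change of -0.24. Among all genes tested 15.0% fell and 14.1% rose, with a median of 0.01. Tyk2, a kinase of the IL-10 and interferon receptors, had 121 ± 6.60 CPM in KO and 210.2 ± 9.41 CPM in WT, and fell by 0.80 ± 0.05 on the log2 scale (adjusted p = 3.66e-07). Stat2, a STAT of interferon signalling, fell by 1.09 ± 0.07, more than Stat3 in size, though the difference between these genes was not tested. Stat6, the STAT of IL-4 signalling, fell by 0.24 ± 0.03. Jak2 and Jak1 fell by 0.23 ± 0.06 and 0.14 ± 0.03, with both calls lost with library totals (adjusted p = 0.113 and 0.516) and that of Jak2 also without KO 1 and KO 2 (0.0657) or KO 1 and KO 3 (0.0681). Jak3, Stat4, Stat5a and Stat5b had log2 fold changes of -0.07 ± 0.05, -0.45 ± 0.17, -0.02 ± 0.07 and -0.00 ± 0.05 and did not pass. Stat4 was called without KO 1 (adjusted p = 0.0425) and without WT 2 (0.0289).

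Of the 6 other genes of the SOCS family 1 passed, a share of 16.7% against 29.1% of all genes tested, and it rose. Cish, a feedback gene of STAT5 signalling, had 3.35 to 4.78 CPM in KO and 1.31 to 2.53 CPM in WT (log2 fold change 1.14 ± 0.20, adjusted p = 0.00103). Cish thus changed in the opposite direction to Socs3. Socs2 had 0.78 ± 0.36, Socs4 -0.12 ± 0.05, Socs5 -0.15 ± 0.06 and Socs7 0.01 ± 0.07 on the log2 scale, none called. Socs4 was called without WT 3 (adjusted p = 0.0444), and Socs5 without KO 3 (0.0436) and without KO 1 and KO 3 (0.0466). Socs6 had a high and a low level within both genotypes, at 6.29 to 21.3 CPM in KO and 6.81 to 20.2 CPM in WT, and did not pass (adjusted p = 0.823).

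Of 8 genes of PIAS proteins and phosphatases tested, 5 fell and none rose, with a median of -0.17. The shares of all genes tested were 15.0% lower and 14.1% higher. Ptpn6, the gene of the phosphatase SHP-1, fell by 0.60 ± 0.05 (adjusted p = 2.21e-06), and the STAT inhibitor genes Pias1 and Pias4 fell by 0.24 ± 0.05 and 0.19 ± 0.05. Ptpn11, the gene of SHP-2, fell by 0.14 ± 0.05 (adjusted p = 0.0321), a call lost in 11 of 20 alternatives. With library totals 1 of the 8 genes fell and 2 rose, and neither Pias1 (adjusted p = 0.0689) nor Pias4 (0.222) passed.

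Of the genes known to be induced by IL-10 or STAT3 in macrophages, 20 were tested: 11 fell, 2 rose and 7 did not pass, with a median of -0.25. The shares of all genes tested were 15.0% lower and 14.1% higher. Pim1, a kinase gene, had 110 to 122 CPM in KO and 180 to 196 CPM in WT (log2 fold change -0.70 ± 0.04, adjusted p = 5.22e-07). The survival gene Mcl1 fell by 0.50 ± 0.03, the AP-1 gene Junb by 0.54 ± 0.05 and Il1rn, the gene of the IL-1 receptor antagonist, by 0.45 ± 0.04. The 2 genes that rose, named after their values were seen, were Nfil3, a transcription factor gene, by 0.76 ± 0.07 and Timp1, a metalloproteinase inhibitor gene, by 0.48 ± 0.05. Many genes of this list also respond to LPS by other routes, so the list is not specific to STAT3.

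Regulators of Il6 or Il10 transcription and RNA decay gave 7 lower of 15 tested, none higher, and a median of -0.30. The shares of all genes tested were 15.0% lower and 14.1% higher. Zfp36 and Cebpd stand in this list and the previous one. Batf, a gene of an AP-1 family transcription factor, fell by 0.53 ± 0.04 (adjusted p = 3.44e-06). Nfkbiz, whose protein is needed for full Il6 induction, had 78.9 ± 2.98 CPM in KO and 102 ± 2.90 CPM in WT and fell by 0.37 ± 0.04. Maf, which activates Il10, fell by 0.35 ± 0.05. Zc3h12a, which encodes the ribonuclease Regnase-1 that degrades Il6 RNA, fell by 0.31 ± 0.04, in the same direction as Il6 itself.

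**Figure D5:**
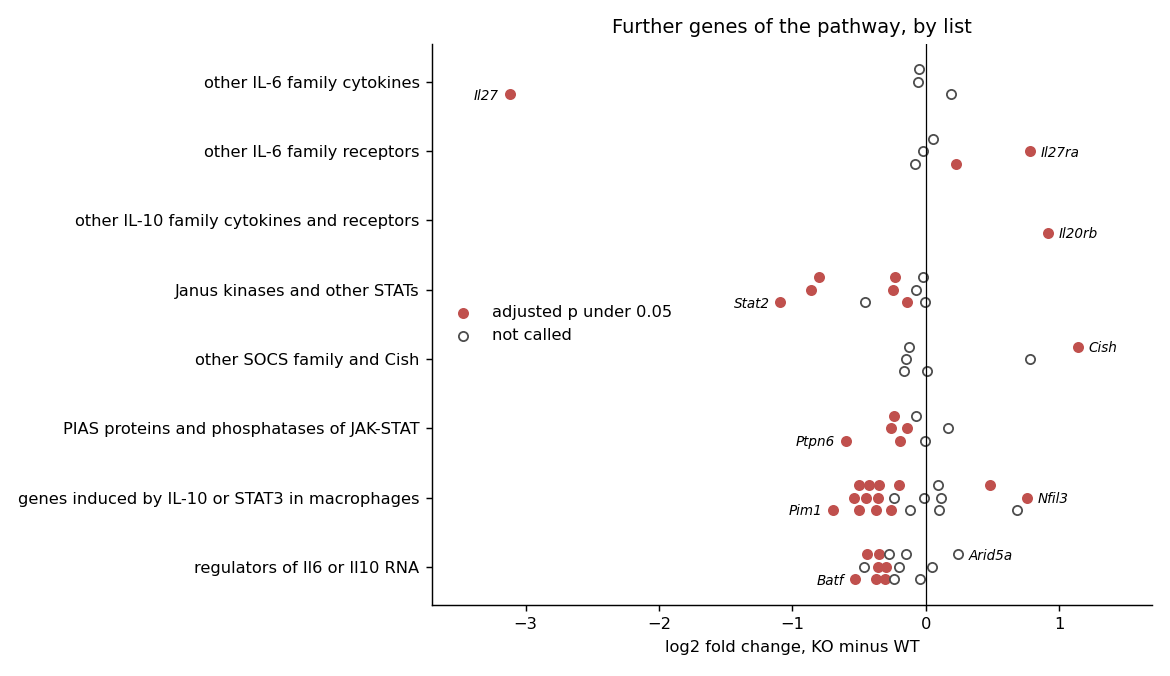
Log2 fold change, KO minus WT (horizontal axis), of each tested gene of the 8 further lists; filled points passed at an adjusted p under 0.05. Il27 lies far to the left at -3.12, Stat2 is the leftmost of the Janus kinases and STATs at -1.09, and Cish lies to the right at 1.14.

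The genes most like Il6, Il10 and Socs3 across the 10 libraries were sought among 11851 genes whose mean log2 CPM reached 1. Pearson's r describes likeness here and is raised by the genotype difference that these genes share, so r after removing each genotype's mean is given beside it. Both values come from the libraries in which the genes were picked as the highest of 11851. That choice raises both, so neither is a test of a link between genes. Closest to Il6 were Ptgs2, the inducible cyclooxygenase gene (r = 0.99, and 0.95 within genotypes), Ms4a6d (0.99 and 0.84) and the IL-12 subunit gene Il12b (0.99 and 0.82). Closest to Il10 were the transcription factor gene Sp1 (0.99 and 0.93), the serotonin receptor gene Htr2a (0.98 and 0.89) and Tshz1 (0.98 and 0.88). Closest to Socs3 were the syntaxin gene Stx2 (0.99 and 0.84), the NF-kB inhibitor gene Nfkbia (0.99 and 0.81) and Gm28177 (0.99 and 0.82). Among the 10 genes themselves, Il6 and Il10 had an r of 0.93, and 0.46 within genotypes. Stat3 and Socs3 had 0.97, and 0.49 within genotypes. Other pairs of the 10 genes with a high r differed in the value within genotypes. Il6 had 0.93 and -0.06 with Stat3, 0.93 and 0.07 with Socs3, 0.81 and -0.53 with Lif, and 0.81 and 0.62 with Il10rb.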

How the data were processed

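Gene expression had been measured in 5 KO and 5 WT libraries. The authors deposited whole-number counts per gene and library. They also deposited FPKM in the same table, per the file headers. The FPKM of the WT columns served here to recover the length that the authors' FPKM imply, used for each level per kilobase. For Socs1 this implied length exceeds the listed locus, so it need not be the length of a transcript. The submitters' processing notes name CASAVA 1.8 and TopHat2 2.0.6. They also name the builds mm10 and GRCm39 without a role, so table coordinates carry no build here. No gene counter, annotation or strand setting is given in the sources used here, so overlapping genes cannot be separated. WT columns match the labels by name. SI columns were read as KO by elimination, and their numbers name libraries without tying them to single samples. The 5 FPKM columns headed SI were not used.

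Counts were tested with edgeR 4.0.16 in R 4.3.3 (TMM scaling, quasi-likelihood F test; genes were kept by filterByExpr at a minimum count of 10), with Benjamini-Hochberg adjustment over all 14436 genes kept, which held 99.9% of counts. The biological coefficient of variation was 12.8%. SE is the log2 fold change divided by the square root of F. Log2 ratios of counts used a pseudocount of 0.5 and an exact permutation test. Log2 CPM used a prior count of 2. The test was checked on simulated data. The 10 genes, the 8 further lists and the cell markers were chosen with earlier results of these data known. Named were all 10 genes, up to 4 called genes with the smallest p in each list, every tested IL-6 family receptor, Janus kinase, STAT and SOCS gene, the 3 genes most like Il6, Il10 and Socs3, and the 2 most abundant markers of each other cell type; genes outside this rule are values for context, and 1 gene that the rule names is not reported here. Alternatives were DESeq2 1.42.0 size factors and Wald test, library totals, testing without a filter, a minimum of 50 counts in 5 libraries, robust edgeR, limma-voom (limma 3.58.1), a replicate block and each library left out in turn. Fits without KO 1 and KO 2, and without KO 1 and KO 3, were added after the data were seen.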

Additional observations from a re-analysis of the deposited data

Results flagged for a closer look

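Of 100 groups of 5 libraries examined, 9 held a library whose gap to its nearest neighbour exceeded 0.71 of the whole range of its group, and chance alone marks about 1 group in 20. Il10ra was highest in WT 4, at 61.3 CPM against 29.9 to 34.2 CPM in the other WT libraries. The log2 ratio of Il10ra to Il10rb stood apart in the same library, at -1.32 against -2.37 to -2.24. Il10rb was lowest in KO 2, at 127 CPM against 143 to 148 CPM in the other KO libraries, and Stat3 was highest in KO 4, at 195 CPM against 182 to 185 CPM. Among the further genes, KO 5 was the highest KO library for Cish (4.78 CPM against 3.35 to 3.73 CPM) and for Il11ra1 (152 CPM against 121 to 125 CPM). KO 1 was the highest for Junb (139 CPM against 127 to 130 CPM) and for Pias4 (40.4 CPM against 38.6 to 38.9 CPM). Jak2 was highest in WT 5, at 469 CPM against 393 to 402 CPM in the other WT libraries.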

How the results depend on the processing

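Over the 20 alternatives, Il6, Socs3, Stat3, Lif, Osm and Il6ra kept direction and call, as did Il10 in the 19 that tested it; with a filter of 50 counts in 5 libraries Il10 was not tested and 5 of the 10 genes fell. The count of the 10 genes that fell was otherwise 6 or 7 and that of genes that rose was 1. The log2 fold change ranged from -1.57 to -1.36 for Il6, from -0.98 to -0.78 for Il10, from -0.61 to -0.47 for Socs3 and from -0.36 to -0.21 for Osm (adjusted p up to 0.0455). With library totals 4231 genes were higher and 1361 lower, and the lists gave 2 higher and 1 lower for PIAS proteins and phosphatases, 4 higher for genes induced by IL-10 or STAT3 and 1 higher for regulators of Il6 or Il10 RNA. PIAS proteins and phosphatases gave 3 lower with no filter, with the replicate block, and without KO 1 and KO 2 or KO 1 and KO 3, and 3 to 5 lower with 1 library left out; it was 3 without KO 3, KO 5, WT 1 or WT 4. Receptors of the IL-6 family gave 1 higher without KO 1 and KO 2 and 1 to 2 higher with 1 library left out. Other SOCS genes gave 1 lower without KO 1 and KO 3, and 0 to 1 with 1 library left out. The ratio of Lif to Osm passed without KO 1 and KO 2 at -0.26, and that of Il6ra to Il6st ranged from 0.19 to 0.33 with 1 library left out. The causes were not tested. For the replicate block, the number in a KO column was assumed to pair it with the WT library of that number. Deviations of same-numbered libraries correlated at -0.11 to 0.18, so the pairing is not borne out, and the block called 3780 genes in place of 4200, among them Il10rb (adjusted p = 0.0466). Under it the ratios of Il6 to Il10 and of Socs3 to Socs1 had the same differences, -0.58 and -0.48, at an adjusted p of 0.104; a sign-flip test of 5 pairs cannot go below 0.0625. Il10, at 25 to 63 counts, is the gene of the 10 that depth limits most.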
